A study of Mus musculus with 16 samples.

Results

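The BDC2.5 T cell receptor (TCR) transgene was compared with a polyclonal repertoire in DN4 thymocytes of NOD mice. The comparison used the 2 arrays of BDC/NOD DN4 and the 2 arrays of NOD DN4, 4 of the 16 arrays in the series. BDC mice carry the rearranged receptor genes of a CD4 T cell clone that causes diabetes, and the non-transgenic (non-Tg) NOD mice carry their own, unselected repertoire. Both groups had the NOD background, with its MHC haplotype H2g7 and its spontaneous diabetes, and all mice were 4 weeks old. Thymocytes were depleted of CD4 and CD8 cells with complement and then sorted by flow cytometry as lineage-negative cells without CD4, CD8, CD44 and CD25. The NOD DN4 arrays both came from females, whereas BDC/NOD DN4 had 1 male array (replicate 1) and 1 female array (replicate 2). The most similar comparison in the series was the same one in DN4 cells of B6g7 mice, which are C57BL/6 animals with the H2g7 haplotype (2 BDC/B6g7 and 2 B6g7 arrays). The other was the comparison in NOD DN2-3 cells, sorted for CD25 at the preceding stage (2 BDC/NOD and 2 NOD arrays). Neither shares an array with the comparison in NOD DN4 cells, and in both the non-Tg arrays were female and the BDC pair was 1 male and 1 female.

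Double-negative thymocytes rearrange their receptor genes with the RAG recombinase. At DN3 a productive beta chain pairs with the pre-TCR alpha chain, and the signal it gives drives cells through DN4, with rapid division, toward the double-positive stage, where CD4 and CD8 are expressed and the alpha chain is rearranged. Gamma-delta T cells leave the same precursors after stronger receptor signals that run through the ERK kinases, the EGR factors and Id3. Transgenic alpha-beta receptors are commonly expressed already in double-negative cells, earlier than a receptor that has to be rearranged there.

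All values are log2 intensities of single arrays, and a difference is the mean of BDC/NOD DN4 minus the mean of NOD DN4, given with its standard error (SE) from limma. Of 19531 genes with a probe set, 10689 passed the filter on low signals and were tested, and a gene was called at a Benjamini-Hochberg adjusted p under 0.05 over all of them. The table had no depth or detection calls, and 2 arrays a group limit the precision. The labels do not say whether the arrays of a group came from separate animals, so the p-values reflect the spread between the arrays, which may be technical. Across genes, the arrays of a pair had correlations of 0.96 to 0.995. The NOD DN2-3 pair stood apart, with a median absolute difference of 0.25 between its arrays against 0.07 to 0.13 in the other pairs. Each SE pools the spread within all 8 groups, so this pair also enters the SEs and p-values of the comparison in DN4 cells. Calls in DN4 can therefore change when an array outside the comparison is left out. Signals up to 5.98, the highest reading of 3 Y-linked genes on female arrays, were taken as not above background, and where a group lay there only a lower bound of the difference is given, written "at least". The Y-linked genes and Xist matched the labelled sex on every array.

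The sorted stage could be followed in the transcripts of its gating markers. Il2ra, which encodes CD25, read 10.18 and 9.96 in NOD DN4 and 9.09 and 9.10 in BDC/NOD DN4, against 12.32 to 13.30 on the 4 NOD DN2-3 arrays. Cd44 read 6.81 and 6.95 in NOD DN4 and 6.30 and 6.49 in BDC/NOD DN4, close to the background level on all 4 arrays. Both fell with the transgene, Il2ra with a difference of -0.97 ± 0.12 (adjusted p = 7.5e-05) and Cd44 with one of -0.49 ± 0.11 (adjusted p = 0.0044, and 0.063 without BDC/NOD DN4 replicate 1, at -0.40). Transcripts of Cd4, Cd8a and Cd8b1 were present in both groups and are described with the genes that were lower. In bulk samples such as these, fewer cells of a type and less RNA per cell cannot be told apart.

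With the transgene, 1132 genes were higher (10.6% of those tested) and 1577 were lower (14.8%). The counts in gene lists below are to be read against these shares. The lists were chosen with earlier results of these data known, so their counts describe the members and are no independent test. Normalizing the arrays by quantiles again gave 1318 higher and 1429 lower. The higher genes reached larger differences: 216 genes were higher and 62 lower by at least 2-fold, and 41 higher and 5 lower by at least 4-fold. The median difference over all genes tested was -0.03, the median size of a called difference was 0.51, and the median SE was 0.12. In all 2709 called genes the arrays of the groups did not overlap. With 2 arrays a group this largely follows from the call. It is no separate support, here or where it is stated for single genes below. The count rested on all 4 arrays, since 1444 genes were called without NOD DN4 replicate 1, 1710 without NOD DN4 replicate 2, 1353 without BDC/NOD DN4 replicate 1 and 1573 without BDC/NOD DN4 replicate 2. Without the 4 male arrays, which leaves a single array in each BDC group, 613 were called, 372 higher and 241 lower.

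**Figure D1:**
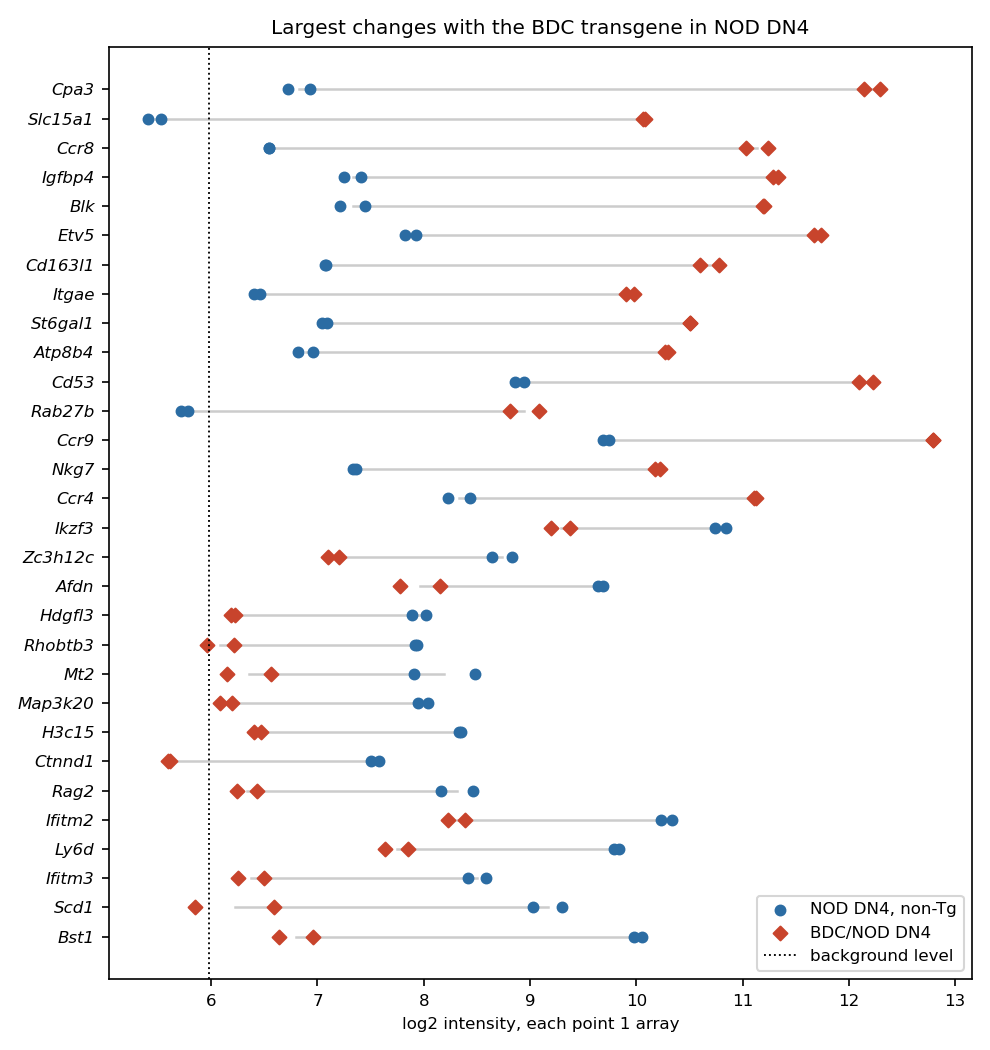
Log2 intensity (x axis) on each NOD DN4 array (blue circles) and each BDC/NOD DN4 array (red diamonds) for the 15 genes with the largest called increase and the 15 with the largest called decrease, without predicted, sex-linked and receptor locus genes. The grey lines join the group means and the dotted line marks the background level of 5.98. The 30 genes were chosen among those whose arrays lie apart between the groups. The arrays of Slc15a1 and Rab27b in NOD DN4 and of Ctnnd1 in BDC/NOD DN4 lie below the background level.

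The genes with the largest increase included several known from gamma-delta T cells. Cpa3, carboxypeptidase A3, read 6.93 and 6.72 in NOD DN4 and 12.14 and 12.29 in BDC/NOD DN4, a difference of 5.39 ± 0.20, or 42-fold (adjusted p = 8.4e-10). Slc15a1, a peptide transporter, read 5.41 and 5.53, not above background, and 10.08 and 10.06 with the transgene, which made it at least 4.09 higher, or at least 17-fold (adjusted p = 4.9e-12). The chemokine receptor gene Ccr8 read 6.54 on both NOD DN4 arrays and 11.03 and 11.24 on the BDC/NOD DN4 arrays (4.59 ± 0.17, adjusted p = 8.4e-10). In these 3 genes both transgenic arrays stood far above both non-Tg arrays, and the arrays of a group lay within 0.21 of each other. Igfbp4, which encodes a binding protein of insulin-like growth factors, rose by 3.98 ± 0.11, and Blk, a kinase of the Src family, by 3.86 ± 0.14. Cd163l1, a scavenger receptor gene, rose by 3.61 ± 0.11. Itgae, the alpha chain of the CD103 integrin, read 6.4 and 6.46 against 9.90 and 9.98 (3.51 ± 0.17, adjusted p = 1e-08).

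The gamma-delta list held 34 genes, of which 28 were matched to a probe set and 21 were tested; the gamma and delta constant region genes were among the 6 not matched and were not analysed here. Of the 21, 15 rose and 2 fell, and the median difference was 2.85. The list includes Cpa3, Slc15a1, Ccr8 and Igfbp4, named above for their large increases, and was chosen with earlier results of these data known. Slc15a1, not above background in NOD DN4, passed the filter only through other groups, and matched members low in all groups were not tested. The count and the median therefore describe these members and are no separate support. Sox13, a factor needed by gamma-delta cells that make IL-17, read 7.93 and 7.90 in NOD DN4 and 9.52 and 9.75 in BDC/NOD DN4 (1.72 ± 0.11, adjusted p = 2.4e-07). Maf, a transcription factor of cells that make IL-17, rose by 2.47 ± 0.14, and Gzma, a granule protease, by 1.79 ± 0.14. Every Sox13 and Gzma reading with the transgene was above every reading without it. The members that fell were Id3, an inhibitor of E proteins that receptor signals induce (-0.41 ± 0.13, adjusted p = 0.029), and Tbx21, which encodes T-bet (-0.79 ± 0.16, adjusted p = 0.0026). The call of Id3 was lost without any 1 of the 4 arrays: its difference was -0.45 and -0.37 without NOD DN4 replicates 1 and 2, and -0.44 and -0.38 without BDC/NOD DN4 replicates 1 and 2. Zbtb16, which encodes PLZF of innate-like T cells, read 7.33 and 7.64 against 7.86 and 7.91 (0.40 ± 0.15, adjusted p = 0.061). Ccr6 and Il23r, markers of IL-17-producing gamma-delta cells, did not pass the filter, with readings of 5.50 to 6.02 and 4.69 to 4.91 on the 4 arrays.

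Cpa3 and Nkg7 are also genes of mast cells and of natural killer cells, so those markers are given beside them. The summed intensity of 16 matched mast cell and basophil markers was 1154 to 1198 in NOD DN4 and 5708 to 6175 in BDC/NOD DN4, and Cpa3 made up most of it. In BDC/NOD DN4, 9 of the 16 were not above background, among them Fcer1a, Ms4a2, Mcpt1, Mcpt2, Mcpt4, Mcpt8, Cma1 and Tpsab1. Kit, the stem cell factor receptor, read 8.56 and 8.50 against 9.02 and 8.83 (0.40 ± 0.14, adjusted p = 0.054). The sum of 18 natural killer and NKT markers was 1320 to 1336 against 2353 to 2390. Nkg7, a granule protein of cytotoxic cells, read 7.33 and 7.36 against 10.18 and 10.22 (2.85 ± 0.12), while Ncr1 and Klrb1c were among 9 markers of this list not above background in BDC/NOD DN4. Whether the probes of these markers read NOD transcripts well was not tested, nor was the share of natural killer cells.

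The T cell receptor complex and its proximal signalling genes were higher more often than lower. Of 32 genes tested, 15 rose and 1, Syk, fell, with a median difference of 0.40. Cd3e, the epsilon chain of CD3, read 12.75 and 12.59 in NOD DN4 and 12.91 and 12.83 in BDC/NOD DN4, a difference of 0.20 ± 0.10 that was not called (adjusted p = 0.15). Txk, a kinase of the Tec family, read 8.45 and 8.84 against 10.15 and 10.18 (1.52 ± 0.13, adjusted p = 4e-06). Rasgrp1, the exchange factor that links the receptor to Ras, read 11.26 and 11.21 against 12.51 and 12.45 (1.24 ± 0.09, adjusted p = 9.1e-07). The transgenic arrays were higher for both genes without overlap. Among the other members that rose were Grap2, the adaptor GADS (0.78 ± 0.08), the Src family kinase gene Fyn (0.84 ± 0.18) and Ptpn22, a phosphatase that restrains receptor signals and is a candidate gene of diabetes loci (0.63 ± 0.13). Fyn was not called without NOD DN4 replicate 1 (0.67, adjusted p = 0.053), and Syk, a kinase of the pre-TCR, which fell by 0.54 ± 0.13, lost its call without NOD DN4 replicate 1 or without either BDC/NOD DN4 array. Without the 4 male arrays 5 members of this list were called higher.

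Genes that receptor signals induce rose with the transgene. Of 27 tested, 18 rose and 2 fell, and the median difference was 0.63. Pdcd1, which encodes the inhibitory receptor PD-1, read 8.57 and 8.70 in NOD DN4 and 10.92 and 10.87 in BDC/NOD DN4 (2.26 ± 0.10, adjusted p = 5.5e-09). Cd69, an early activation antigen, read 9.41 and 9.25 against 11.03 and 11.26 (1.82 ± 0.19, adjusted p = 1.9e-05). Both genes were higher on each transgenic array than on either non-Tg array. Rgs1, a regulator of G protein signals, read 6.87 and 6.29 against 8.56 and 8.85 (2.13 ± 0.30). Tnfrsf18, the receptor GITR, rose by 1.56 ± 0.25, and Nfkbid, an atypical inhibitor of NF-kappaB, by 1.29 ± 0.15. The EGR factors moved less: Egr2 read 7.31 and 7.21 against 7.94 and 8.18 (0.80 ± 0.14, adjusted p = 0.0011), and Egr1 8.19 and 8.32 against 8.89 and 8.83 (0.61 ± 0.16, adjusted p = 0.014). Cd5, whose level follows receptor signal strength, read 8.94 and 8.78 against 9.38 and 9.23 (0.45 ± 0.10, adjusted p = 0.006). Nr4a1, which encodes NUR77, read 11.69 and 12.18 against 12.82 and 12.86, a difference of 0.91 ± 0.35 that was not called in the main fit (adjusted p = 0.077). At the same difference it was called higher with only the arrays compared in the fit (adjusted p = 0.0012) and with only the DN4 arrays (adjusted p = 0.00033).

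Some of these calls rested on single arrays. Egr1 was not called without NOD DN4 replicate 1 (0.54, adjusted p = 0.10), BDC/NOD DN4 replicate 1 (0.58, adjusted p = 0.09) or BDC/NOD DN4 replicate 2 (0.63, adjusted p = 0.06), and Cd5 was not called without NOD DN4 replicate 2 (0.37, adjusted p = 0.065) or BDC/NOD DN4 replicate 1 (0.38, adjusted p = 0.074). The members that fell were Id3 and Cd44, whose leave-out values are given with the gamma-delta list and the gating markers. Without the 4 male arrays 9 members of the list were called higher.

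The promoters of the receptor-induced genes were searched for the EGR motif, since Egr1 and Egr2 rose with them. The motif GCGNGGGCG on either strand, in a window of 250 bases before to 50 bases after the gene start, was found in 5 of the 19 receptor-induced genes with a window (26.3%), called or not. A gene could have several windows and was counted if any of them held a match. There were 28 windows for these 19 genes, 1270 for the 903 genes called higher and 10991 for the 8664 tested genes given next, so the shares are not matched for windows. The motif was present in 1 of 14 MAPK feedback genes (7.14%), in 13.4% of 903 genes called higher, in 12.2% of 8664 tested genes with a window and in 6.27% of all 27025 genes of the RefSeq promoter table (GRCm38.p6). The windows of Gadd45b, a stress-induced gene of the growth arrest family, and Nr4a2, an orphan nuclear receptor related to Nr4a1, are shown because, of the receptor-induced and MAPK feedback genes that rose, they had the largest differences among those with a match, which is in capitals. A match describes the letters and does not show that a factor binds.
Gadd45b, chr10:80929841-80930140, plus strand: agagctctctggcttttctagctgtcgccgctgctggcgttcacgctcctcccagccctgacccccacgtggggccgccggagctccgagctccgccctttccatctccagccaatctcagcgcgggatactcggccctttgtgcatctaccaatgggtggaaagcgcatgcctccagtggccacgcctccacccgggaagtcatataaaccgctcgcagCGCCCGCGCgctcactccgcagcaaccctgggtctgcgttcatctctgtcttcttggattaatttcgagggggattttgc
Nr4a2, chr2:57123954-57124253, minus strand: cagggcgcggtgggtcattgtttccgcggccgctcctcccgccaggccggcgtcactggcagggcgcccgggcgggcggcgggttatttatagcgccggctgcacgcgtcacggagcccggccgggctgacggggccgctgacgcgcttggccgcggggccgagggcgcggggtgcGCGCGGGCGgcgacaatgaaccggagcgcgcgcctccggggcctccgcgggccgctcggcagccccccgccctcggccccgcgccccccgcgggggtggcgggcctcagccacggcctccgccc
The match starts 30 bases before the gene start in Gadd45b and 74 bases before it in Nr4a2. Gadd45b read 7.28 and 7.32 in NOD DN4 and 7.80 and 8.19 in BDC/NOD DN4 (0.69 ± 0.16, adjusted p = 0.0061). Nr4a2 read 10.80 and 10.68 against 11.37 and 11.45 (0.67 ± 0.15, adjusted p = 0.005). In both genes the transgenic arrays were above the non-Tg arrays, by less than for Pdcd1 and Cd69.

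Feedback genes of the MAPK pathway, which ERK signals induce and which in turn dampen them, rose in 9 of 15 tested, with a median difference of 0.59. Etv5, an ETS transcription factor downstream of ERK, read 7.93 and 7.82 in NOD DN4 and 11.67 and 11.74 in BDC/NOD DN4 (3.83 ± 0.10, 14.2-fold, adjusted p = 4.3e-11). A further Etv5 probe set differed by 4.19. The dual-specificity phosphatase genes Dusp10 (1.34 ± 0.14) and Dusp6 (1.29 ± 0.21) also rose, as did Rasal3, which encodes a Ras GTPase-activating protein (1.06 ± 0.17). Dusp5 read 9.84 and 10.57 against 11.40 and 11.27 (1.13 ± 0.28, adjusted p = 0.01), and was not called without NOD DN4 replicate 1 (0.76, adjusted p = 0.13) or BDC/NOD DN4 replicate 1 (1.06, adjusted p = 0.074). In all, 5 members were called without BDC/NOD DN4 replicate 1 and 2 without the 4 male arrays. Immediate-early and AP-1 genes, a related set, rose in 5 of 23. The largest differences among these were in Btg1, an antiproliferative gene (0.94 ± 0.12), and Batf, an AP-1 factor of T cells (0.83 ± 0.15), and 3 were called without NOD DN4 replicate 1 and 9 without either NOD DN2-3 array.

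**Figure D2:**
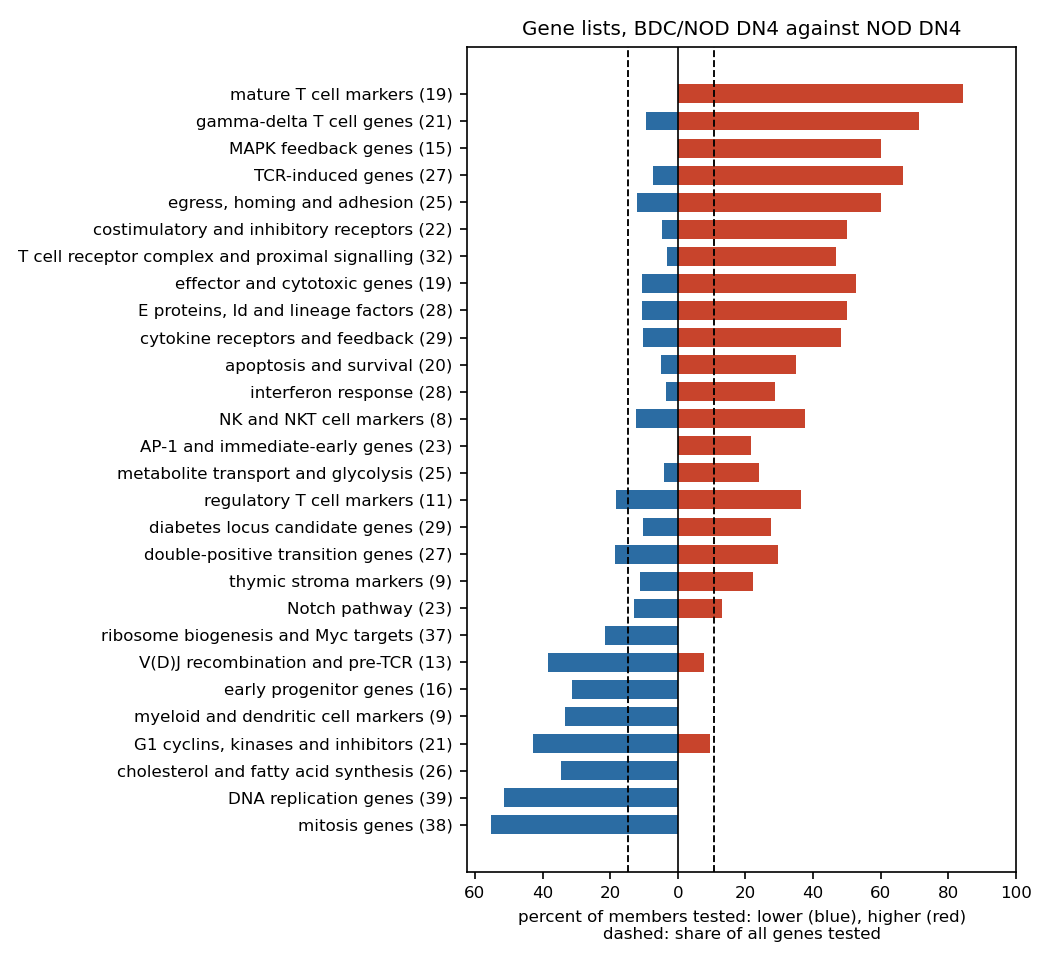
Percent of the tested members of each gene list that were higher (red, to the right) or lower (blue, to the left) in BDC/NOD DN4 than in NOD DN4 at an adjusted p under 0.05, with the number tested in parentheses. The dashed lines mark the share over all genes tested, 10.6% higher and 14.8% lower. The lists were chosen with earlier results of these data known. Mature T cell markers (84.2% higher) and gamma-delta genes (71.4% higher) stand at the top, and DNA replication (51.3% lower) and mitosis genes (55.3% lower) at the bottom.

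Genes of homing and egress and markers of mature T cells rose together. Of 25 homing, egress and adhesion genes tested, 15 rose and 3 fell, with a median of 0.75. S1pr1, the receptor through which thymocytes leave toward sphingosine-1-phosphate in the blood, read 6.90 and 7.07 in NOD DN4 and 9.67 and 9.77 in BDC/NOD DN4 (2.74 ± 0.12, adjusted p = 4.4e-09). Ccr9, the receptor for the thymic and gut chemokine CCL25, read 9.74 and 9.69 against 12.79 on both transgenic arrays (3.08 ± 0.16, adjusted p = 2.3e-08). Ccr4 rose by 2.78 ± 0.13. The groups did not overlap in any of these receptors. The members that fell were Cd44, the integrin gene Itga6 (-0.68) and Nrp1, which encodes neuropilin 1 (-0.87 ± 0.16).

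Of 19 mature T cell markers tested, 16 rose, and the median difference was 1.06. Gimap4, a GTPase of lymphocyte survival, read 7.36 and 7.24 in NOD DN4 and 10.01 and 9.97 in BDC/NOD DN4 (2.69 ± 0.12, adjusted p = 3.9e-09). Ms4a4b, a membrane protein of mature T cells, was not above background in NOD DN4 (5.70 and 5.38) and read 7.54 and 7.51 with the transgene, at least 1.55 higher. Ccr7, a receptor that guides mature cells to the medulla and to lymph nodes, rose by 1.77 ± 0.17, and Bcl2, which protects from cell death, read 9.50 and 9.48 against 11.17 and 11.24 (1.71 ± 0.11). Il7r, the IL-7 receptor, differed by 0.02 and Cd28, a costimulatory receptor, by 0.00, and neither was called. The summed intensity of the 20 matched markers was 8256 to 8359 in NOD DN4 and 17295 to 17512 in BDC/NOD DN4, and the share of mature cells in each sample was not tested.

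Of 11 regulatory T cell markers tested, 4 rose (36.4%, against 10.6% of all genes tested) and 2 fell (18.2%, against 14.8%). Their median difference was 0.22. Besides Itgae and Tnfrsf18, Izumo1r, the folate receptor 4 gene of regulatory cells, rose by 1.18 ± 0.13, and Ikzf2, which encodes Helios, by 1.04 ± 0.10. Foxp3, the defining factor, read 7.06 and 6.86 against 6.74 and 6.79 and was not called. The members that fell were Nrp1 and Il2ra.

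Receptors of cytokines and of costimulation were higher more often than lower. Of 29 cytokine receptor and feedback genes tested, 14 rose and 3 fell (median 0.36). Tgfbr2, a receptor chain for TGF-beta, read 8.29 and 8.42 in NOD DN4 and 9.78 and 9.73 in BDC/NOD DN4 (1.40 ± 0.14, adjusted p = 1.4e-05). Jak1, a kinase shared by many cytokine receptors, rose by 1.10 ± 0.12 and Ifngr2, a chain of the interferon-gamma receptor, by 1.07 ± 0.13. Socs2, a feedback inhibitor, was not above background without the transgene and was at least 0.94 higher, though its other probe set differed by 0.04. Bcl6, Il15ra and Il2ra fell. Il2rb, the beta chain of the IL-2 and IL-15 receptors, read 6.47 and 6.41 against 7 and 6.70 (0.41 ± 0.14, adjusted p = 0.043), and was not called without NOD DN4 replicate 1 (0.44), NOD DN4 replicate 2 (0.38) or BDC/NOD DN4 replicate 1 (0.26), nor without any 1 of the B6g7 DN2-3, BDC/B6g7 DN2-3, BDC/NOD DN2-3 or B6g7 DN4 arrays.

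Of 22 costimulatory and inhibitory receptor genes, 11 rose and 1 fell (median 0.37). Cd226, an activating receptor of T and natural killer cells, was not above background in NOD DN4 and at least 1.93 higher with the transgene. Slamf1, a self-ligand receptor of lymphocytes, read 6.67 and 6.47 against 8.59 and 8.78 (2.12 ± 0.15, adjusted p = 6.7e-07). Cd27, a receptor tied to gamma-delta subsets, read 10.26 and 10.29 against 11.38 and 11.21 (1.02 ± 0.11). Cd200, a ligand that inhibits myeloid cells, fell, from 8.20 and 8.50 to 7.25 and 7.30 (-1.07 ± 0.17). Of 29 candidate genes of diabetes loci, 8 rose (27.6%, against 10.6% of all genes tested) and 3 fell (10.3%, against 14.8%). The median was 0.17. Slamf1, the complement-related receptor gene Cd93 (2.03 ± 0.10), Bach2, a repressor of effector programs (1.52 ± 0.17), and the costimulatory receptor gene Icos (0.73 ± 0.14) were among those that rose.

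Of 28 E protein, Id and lineage factor genes, 14 rose and 3 fell (median 0.35). Tox2 read 7.38 and 7.45 in NOD DN4 and 10.04 and 10.20 in BDC/NOD DN4 (2.71 ± 0.23, adjusted p = 2.9e-06). Runx3, a factor of CD8 and of innate-like T cells, read 8.76 and 8.63 against 10.50 and 10.48 (1.80 ± 0.15). Gata3, a factor of T cell commitment and of the CD4 lineage, read 10.61 and 10.60 against 12.05 and 11.93 (1.38 ± 0.12). For each of these factors the readings with the transgene were above all readings without it. Id2 and Id3, which inhibit E proteins, and Ikzf3, which encodes Aiolos, were the members that fell (Id2 -0.82 ± 0.14, Ikzf3 -1.50 ± 0.20). Of 19 effector and cytotoxic genes tested, 10 rose and 2 fell (median 0.40), the latter Tbx21 and Tnf, with 1 of the 2 called without either NOD DN4 array or BDC/NOD DN4 replicate 1. Rora, an orphan nuclear receptor of innate-like cells, rose by 1.41 ± 0.11.

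Of 23 Notch pathway genes tested, 3 rose and 3 fell (13% each, against 10.6% and 14.8% of all genes tested). The median was 0.05. Hes1, a direct Notch target, read 9.57 and 9.59 in NOD DN4 and 11.15 and 11.22 in BDC/NOD DN4 (1.61 ± 0.08, adjusted p = 1.4e-08). The targets Nrarp (-0.82), Ptcra and Il2ra fell, while the receptor genes Notch1 (-0.18 ± 0.23) and Notch3 (0.19 ± 0.21) were not called. Without either NOD DN2-3 array 5 members were called lower. Furin, the protease that cuts Notch, rose by 0.85 ± 0.26 (adjusted p = 0.031) and was not called without any 1 of the 4 arrays, with values from 0.67 without NOD DN4 replicate 1 to 1.02 without NOD DN4 replicate 2 (0.87 and 0.83 without BDC/NOD DN4 replicates 1 and 2).

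Of 13 genes of receptor rearrangement and of the pre-TCR tested, 5 fell and 1, the DNA ligase gene Lig4, rose, and the median was -0.31. Rag2, a subunit of the recombinase, read 8.46 and 8.16 in NOD DN4 and 6.43 and 6.24 in BDC/NOD DN4 (-1.97 ± 0.22, adjusted p = 3.1e-05). Rag1, the catalytic subunit, read 10.98 and 11.19 against 9.97 and 10.08 (-1.05 ± 0.24, adjusted p = 0.0066). Ptcra, the pre-TCR alpha chain, read 8.99 and 9.03 against 8.15 and 8.20 (-0.83 ± 0.16, adjusted p = 0.0019). The transgenic arrays were lower for each of these genes without overlap, and Rag2 came close to the background level. Rag1 was not called without NOD DN4 replicate 2 (-0.95, adjusted p = 0.054) or BDC/NOD DN4 replicate 1 (-1, adjusted p = 0.054). Without either NOD DN2-3 array 8 members were called lower, and the increase of Lig4 (0.57 ± 0.16) was not called without NOD DN4 replicate 1 or either BDC/NOD DN4 array. Dntt, the polymerase that adds untemplated bases, read 11.35 and 11.37 against 11.04 and 11.23 (-0.23 ± 0.11). It was not called in the main fit, but was with array weights (adjusted p = 0.032).

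The largest decrease of all was in Bst1, the ectoenzyme CD157, which read 10.05 and 9.98 in NOD DN4 and 6.64 and 6.96 in BDC/NOD DN4 (-3.22 ± 0.14, 9.31-fold lower, adjusted p = 3.1e-09). Ly6d, a surface protein of lymphoid precursors, read 9.79 and 9.84 against 7.64 and 7.85 (-2.07 ± 0.18). Of 7 variable segments of the receptor loci with a probe set, 3 were tested, and 2 of these fell. Trdv2-2, a delta chain segment, read 10.01 and 9.77 against 6.84 and 6.79 (-3.07 ± 0.16, adjusted p = 1.7e-08), and Trbv1, a beta chain segment, 8.93 and 9.23 against 7.51 and 7.66 (-1.50 ± 0.16, adjusted p = 3.2e-05). Both segments were lower on every transgenic array. Trav13-5, an alpha chain segment, read 8.73 and 8.57 against 8.88 and 8.57 (0.07 ± 0.15) and was not called.

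Coreceptor transcripts were not higher with the transgene. Cd4 read 8.05 and 8.42 in NOD DN4 and 7.60 and 7.44 in BDC/NOD DN4 (-0.72 ± 0.14, adjusted p = 0.0028). Cd8b1 read 9.36 and 9.52 against 9.23 and 9.10 (-0.28 ± 0.22, adjusted p = 0.41), and Cd8a 8.85 and 8.97 against 8.50 and 8.57 (-0.38 ± 0.18, adjusted p = 0.14). Of the 3 genes, only Cd4 was called in the main fit. With only the DN4 arrays in the fit, Cd8a (adjusted p = 0.0092) and Cd8b1 (adjusted p = 0.04) were called lower too, at the same differences. In the wider list of genes of the double-positive transition, 8 of 27 rose (29.6%) and 5 fell (18.5%), with a median of -0.10. The list was above the 10.6% of all genes tested for increases and near their 14.8% for decreases. It held both St6gal1, a sialyltransferase, which read 7.09 and 7.04 against 10.51 on both transgenic arrays (3.44 ± 0.14), and Ikzf3 and the Rag genes, which fell. Without NOD DN4 replicate 1 or BDC/NOD DN4 replicate 1, 5 members were called higher; 3 were called lower without NOD DN4 replicate 2 or BDC/NOD DN4 replicate 1, and 8 without either NOD DN2-3 array. Of 16 early progenitor genes, 5 fell (median -0.12), among them Il2ra, Id2 and Gfi1b, a repressor of stem and progenitor cells (-0.72 ± 0.14).

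Cell cycle genes fell by small amounts in many members at once. Of 39 DNA replication genes, 20 fell and the other 19 were not called, with a median of -0.41. The replication factor subunit gene Rfc4 read 11.96 and 11.98 in NOD DN4 and 10.99 and 11.05 in BDC/NOD DN4 (-0.96 ± 0.09, adjusted p = 1.3e-05). Tk1, thymidine kinase, read 10.68 and 10.65 against 9.77 and 9.65 (-0.96 ± 0.10, adjusted p = 2.6e-05). In both genes the arrays of a group agreed within 0.12, and the groups were far apart on that scale. Cdc6 (-0.74 ± 0.10) and Orc1 (-0.70 ± 0.09), which load the replicative helicase, and Gins1, part of that helicase (-0.73 ± 0.10), also fell. Of 38 mitosis genes 21 fell (median -0.43), led by Anln, which encodes the cytokinesis protein anillin (-0.73 ± 0.09), Cdca8, a subunit of the chromosomal passenger complex (-0.71 ± 0.13), and the kinase genes Nek2 (-0.68 ± 0.11) and Bub1 (-0.65 ± 0.09). Among 21 G1 cyclins, kinases and inhibitors 9 fell and 2 rose, the latter count being 5 without either NOD DN2-3 array and 1 without either B6g7 DN2-3 array or any 1 of the 4 arrays compared. Ccne1, cyclin E1, read 10.55 and 10.59 against 9.81 and 9.72 (-0.80 ± 0.09, adjusted p = 2.8e-05).

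These counts moved with single arrays. Without NOD DN4 replicate 2, 13 replication genes were called, and without either NOD DN2-3 array, 34 mitosis genes; without the 4 male arrays the counts were 8 and 6. Of 37 ribosome biogenesis and Myc target genes, 8 fell (21.6%, median -0.21). That count was 3 and 4 without NOD DN4 replicates 1 and 2, 2 and 4 without BDC/NOD DN4 replicates 1 and 2, and 15 without either NOD DN2-3 array. Myc itself, a driver of growth, read 10.88 and 10.70 against 10.47 and 10.57 (-0.27 ± 0.22). It was not called in the main fit, but was with only the arrays compared in the fit (adjusted p = 0.044).

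Promoters of the replication genes were searched for the E2F motif, the binding sequence of the factors that time S-phase genes. The motif TTTCGCGC or TTTGGCGC, on either strand, was found in 9 of 31 replication genes with a window (29%), called or not. It was present in 3.01% of 1294 genes called lower, 1.96% of tested genes and 0.929% of all genes of the table. Of 31 mitosis genes with a window 3.23% held it. As for the EGR motif, a gene was counted if any of its windows held a match. The windows of Orc1 and of Rfc3, a replication factor subunit, are shown because, of the replication and mitosis genes that fell, they had the largest decreases among those with a match, again in capitals.
Orc1, chr4:108579204-108579503, plus strand: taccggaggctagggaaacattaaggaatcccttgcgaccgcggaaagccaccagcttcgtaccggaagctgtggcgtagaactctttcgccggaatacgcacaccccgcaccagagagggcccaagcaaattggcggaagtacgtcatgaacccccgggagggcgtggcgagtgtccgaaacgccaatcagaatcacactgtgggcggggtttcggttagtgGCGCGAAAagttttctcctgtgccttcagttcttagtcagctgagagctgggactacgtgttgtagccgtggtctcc
Rfc3, chr5:151651159-151651458, minus strand: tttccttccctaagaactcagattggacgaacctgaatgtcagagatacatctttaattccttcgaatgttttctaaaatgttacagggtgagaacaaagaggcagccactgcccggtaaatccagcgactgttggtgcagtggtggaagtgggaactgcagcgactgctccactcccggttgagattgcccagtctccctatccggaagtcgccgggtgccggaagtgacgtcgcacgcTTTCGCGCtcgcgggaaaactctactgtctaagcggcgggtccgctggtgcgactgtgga
The match starts 27 bases before the gene start in Orc1 and 10 bases before it in Rfc3. Orc1 read 9.26 and 9.12 in NOD DN4 and 8.51 and 8.47 in BDC/NOD DN4 (adjusted p = 0.00015). Rfc3 read 10.05 and 10.14 against 9.44 and 9.65 (-0.55 ± 0.15, adjusted p = 0.017). The transgenic arrays were lower in both genes. The E2F genes E2f2 (-0.74 ± 0.15) and E2f7 (-0.95 ± 0.12) fell as well, and a part of E2F factors in these decreases was not tested.

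**Figure D3:**
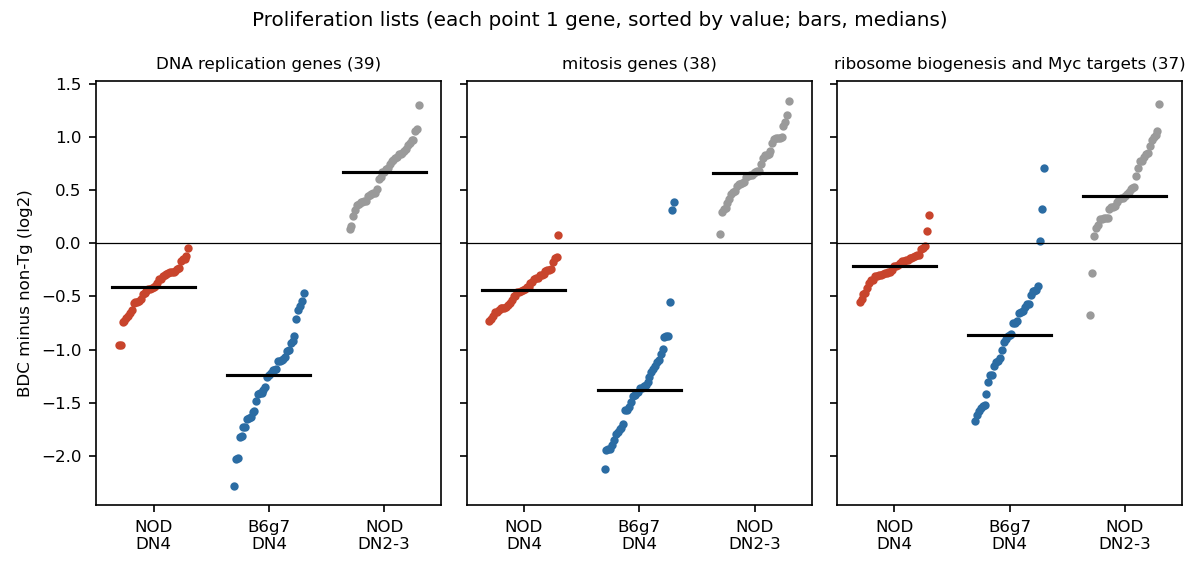
Transgene difference (BDC minus non-Tg, log2) of each tested member of the DNA replication, mitosis and ribosome biogenesis lists in NOD DN4 (red), B6g7 DN4 (blue) and NOD DN2-3 (grey), sorted by value, with black bars at the medians. The medians of the replication genes are -0.41, -1.24 and 0.67, and those of the mitosis genes -0.43, -1.38 and 0.67.

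Of 26 lipid synthesis genes tested, 9 fell (median -0.32). Scd1, stearoyl-CoA desaturase, read 9.03 and 9.30 in NOD DN4 and 5.85 and 6.59 in BDC/NOD DN4 (-2.94 ± 0.26, 7.68-fold lower, adjusted p = 4.9e-06). For Scd1, 1 transgenic array was below the background level and the other was not. Fads2, another desaturase gene (-0.78 ± 0.09), and the cholesterol synthesis genes Cyp51 (-0.70 ± 0.11) and Sqle (-0.62 ± 0.13) fell by less. Of 25 metabolite transport and glycolysis genes 6 rose and 1 fell; after Slc15a1 the largest increase was in the glucose transporter gene Slc2a3, which read 8.43 and 8.77 against 9.90 and 9.94 (1.32 ± 0.20). Slc16a1, a lactate transporter gene, fell by 0.36. The count of 6 was 3 without NOD DN4 replicate 1 or either BDC/NOD DN4 array, and the count of 1 was 3 without either NOD DN2-3 array and lost without any 1 of the 4 arrays compared, either B6g7 DN2-3 array or either BDC/NOD DN2-3 array.

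Interferon response genes rose in 8 of 28 tested (median 0.12) and Bst2, a surface protein that retains virions, fell by 0.42 ± 0.13 (adjusted p = 0.033). Zbp1, a nucleic acid sensor, read 7.22 and 6.86 in NOD DN4 and 7.96 and 7.94 in BDC/NOD DN4 (0.91 ± 0.13, adjusted p = 0.00025), and the RNA sensor gene Ddx58 rose by 0.86 ± 0.10. Usp18, a feedback protease of the pathway, rose by 0.91 ± 0.18. Without NOD DN4 replicate 1 the count of 8 was 5, without either NOD DN2-3 array 2 genes were called lower, and Bst2 was not called without any 1 of the 4 arrays (-0.47 and -0.37 without NOD DN4 replicates 1 and 2, -0.48 and -0.37 without BDC/NOD DN4 replicates 1 and 2). The interferon-induced transmembrane genes Ifitm3 (-2.13 ± 0.28) and Ifitm2 (-1.97 ± 0.12), which were not on the list, fell to a greater extent. Ifitm2 read 10.34 and 10.23 against 8.23 and 8.39, and 2 further Ifitm2 probe sets differed by -1.41 and -1.62. Of 20 apoptosis and survival genes 7 rose and 1, Bid, fell (median 0.19), and Gimap6 (1.35 ± 0.11) and Cflar, which encodes the caspase inhibitor FLIP (0.98 ± 0.11), were among those that rose.

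Several of the largest changes lay outside these lists. Cd53, a tetraspanin of leukocytes, read 8.94 and 8.86 in NOD DN4 and 12.10 and 12.23 in BDC/NOD DN4 (3.27 ± 0.09, adjusted p = 4.3e-11). Atp8b4, a phospholipid flippase gene, read 6.96 and 6.82 against 10.27 and 10.30 (3.40 ± 0.10). Rab27b, a GTPase of secretory granules, was not above background without the transgene and at least 2.97 higher. On the lower side were Ctnnd1, which encodes the junction protein p120-catenin (by at least 2.96-fold, with the BDC/NOD DN4 arrays not above background), the histone H3 gene H3c15 (-1.91 ± 0.11), the stress kinase gene Map3k20 (-1.85 ± 0.12) and the metallothionein gene Mt2 (-1.84 ± 0.20). Afdn, a scaffold of cell junctions, read 9.64 and 9.69 against 7.78 and 8.15 (-1.70 ± 0.12).

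Markers of other cells that the sort could hold moved little apart from those named above. The summed intensity of 16 matched B cell markers was 1446 to 1454 in NOD DN4 and 1316 to 1341 in BDC/NOD DN4, with Cd79a and Ms4a1 among 7 not above background. That of 25 myeloid and dendritic cell markers was 3935 to 3945 against 3513 to 3520, with Itgax, Itgam and Csf1r among 10 not above background in BDC/NOD DN4. Of 9 myeloid markers tested, 3 fell, namely Cd74 (-0.74 ± 0.16), Cd68 (-0.54 ± 0.12) and Bst2, and 1 was called without either NOD DN4 array or BDC/NOD DN4 replicate 1. Stroma markers summed to 2674 to 2769 against 3270 to 3355. Of 9 tested, Pecam1, an adhesion molecule also found on T cells (1.10 ± 0.13), and Pdgfrb rose, and Cldn4 fell. Pdgfrb differed by 0.61 without NOD DN4 replicate 1 and by 0.55 without BDC/NOD DN4 replicate 1. Cldn4 differed by -0.47 without NOD DN4 replicate 2 and by -0.51 without BDC/NOD DN4 replicate 2. Pdgfrb and Cldn4 did not keep their calls in these fits. The erythroid sums overlapped at 2052 to 2341 and 2302 to 2338.

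The same comparison in B6g7 DN4 cells gave a larger response in mostly the same direction. In B6g7, 6336 genes were called, 3213 higher and 3123 lower. The non-Tg B6g7 DN4 arrays had a narrower range of intensities, with ratios of the upper to the lower quartile of 7.6 and 7.46. These ratios were 8.91 and 8.3 in BDC/B6g7 DN4 and 9.34 to 10 on the NOD DN4 and BDC/NOD DN4 arrays. A part of this unlike scale in the larger B6g7 response was not tested. Of the 1132 genes higher in NOD, 1111 had the same sign in B6g7 and 1087 were called there in that direction; of the 1577 lower, 1526 and 1409 were. The called genes in common were 92.1% of those called in NOD and 39.4% of those called in B6g7, and 19 were called in opposite directions. Across genes the differences in the strains correlated with r = 0.837 over 10689 genes, which are not independent replicates. Genes called higher in NOD had a median difference of 0.59 in NOD and 1.14 in B6g7, and genes called lower -0.48 and -0.79; these genes were chosen on the NOD values.

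**Figure D4:**
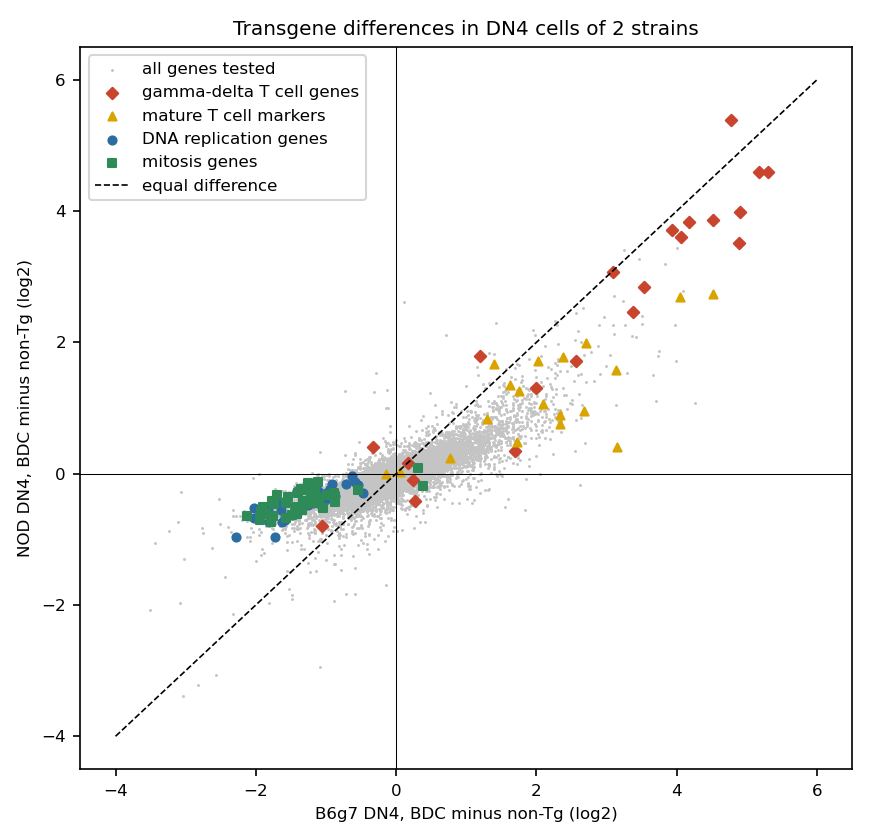
Transgene difference (BDC minus non-Tg, log2) in B6g7 DN4 (x axis) and NOD DN4 (y axis) for 10689 genes (grey) with members of 4 lists in colour, and the line of equal differences (dashed). Replication and mitosis genes lie to the left of that line in the lower part, with medians of -1.24 and -1.38 in B6g7 against -0.41 and -0.43 in NOD. The gamma-delta genes have medians of 3.38 in B6g7 and 2.85 in NOD, and 9 of 21 rose less or fell more in NOD by the interaction test.

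The difference between the strains was tested as an interaction, the NOD DN4 difference minus the B6g7 DN4 difference. It was called higher (more positive in NOD) for 983 genes (9.2% of those tested) and lower for 1169 (10.9%), 45.7% of the calls being higher. Centring each array on its median changed that split to 660 higher and 1398 lower, or 32.1% higher. Normalizing the arrays by quantiles again gave 1195 higher and 1301 lower. The count of 2152 fell to 1305 without NOD DN4 replicate 2, 1401 without BDC/B6g7 DN4 replicate 1, and 1395 and 1335 without BDC/NOD DN4 replicates 1 and 2; it rose to 3734 without either NOD DN2-3 array and was 321 without the 4 male arrays. Where NOD and B6g7 differed, the response was mostly the smaller in NOD: of the genes higher in NOD, 510 had a larger increase in B6g7 with a called interaction against 23 with a larger increase in NOD, and of the genes lower in NOD 562 against 66.

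Many proliferation genes were called in that test. The interaction was called higher for 28 of 39 replication genes, 32 of 38 mitosis genes and 23 of 37 ribosome biogenesis and Myc target genes, that is, the difference was more positive in NOD than in B6g7. The medians in NOD and B6g7 were -0.41 and -1.24, -0.43 and -1.38, and -0.21 and -0.86. Ccne2, cyclin E2, read 10.77 and 10.59 in NOD DN4 and 9.81 and 9.89 in BDC/NOD DN4, against 10.87 and 10.47, and 8.02 and 7.77, in the B6g7 groups (interaction 1.94 ± 0.23, adjusted p = 0.00013). Myc differed in the same way, with -0.27 in NOD and -1.58 in B6g7 (1.31 ± 0.31, adjusted p = 0.0097).

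Cd8a, Cd8b1 and Rag1 also responded less in NOD. In B6g7 the Cd8b1 readings were 11.09 and 11.07 without and 8.07 and 7.97 with the transgene, a difference of -3.06 ± 0.22 against -0.28 ± 0.22 in NOD (interaction 2.78 ± 0.31, adjusted p = 8.6e-05). The corresponding Cd8a readings were 9.57 and 9.39, and 6.96 and 6.94 (-2.53 ± 0.18, interaction 2.15 ± 0.25, adjusted p = 9.8e-05). Of the DN4 groups, non-Tg B6g7 had the highest level of both coreceptor genes and BDC/B6g7 the lowest, with both NOD groups between them. In B6g7, Rag1 went from 9.91 and 10.49 to 7.04 and 6.49 (-3.44 ± 0.24), against -1.05 in NOD (interaction 2.38 ± 0.34, adjusted p = 0.00044). Nrp1 differed by -3.24 ± 0.16 in B6g7, against -0.87 ± 0.16 in NOD (interaction 2.37 ± 0.23). Rgs6, a regulator of G protein signals, was at background on the 14 arrays of the other 7 groups and read 7.79 and 7.88 in BDC/NOD DN4, at least 1.86 above NOD DN4.

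Other genes rose less in NOD. Il2rb, which rose by 0.41 in NOD, read 6.46 and 6.33 in B6g7 DN4 and 9.33 and 9.76 in BDC/B6g7 DN4 (3.15 ± 0.14, interaction -2.74 ± 0.19, adjusted p = 7e-06). Samhd1, a nucleotide hydrolase of antiviral defence, read 5.85 and 5.83 in NOD DN4, 6.78 and 7.05 in BDC/NOD DN4 and 9.92 and 10.49 in BDC/B6g7 DN4. In the non-Tg DN4 arrays Il2rb was near background and Samhd1 near or below it, so the differences of Samhd1 have no exact value. S1pr1 rose by 2.74 in NOD and 4.52 in B6g7 (interaction -1.78 ± 0.17, adjusted p = 3.1e-05), and Itgae by 3.51 and 4.89 (-1.38 ± 0.24, adjusted p = 0.0016). Of the lists, homing and egress genes had the interaction called lower in 13 of 25, mature T cell markers in 10 of 19, receptor complex and signalling genes in 14 of 32 and gamma-delta genes in 9 of 21. Cpa3 (0.61 ± 0.28, adjusted p = 0.15), Ccr9 (-0.01 ± 0.23, adjusted p = 0.98) and Etv5 (-0.34 ± 0.15, adjusted p = 0.11) were not called in that test, which does not show that they respond alike.

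**Figure D5:**
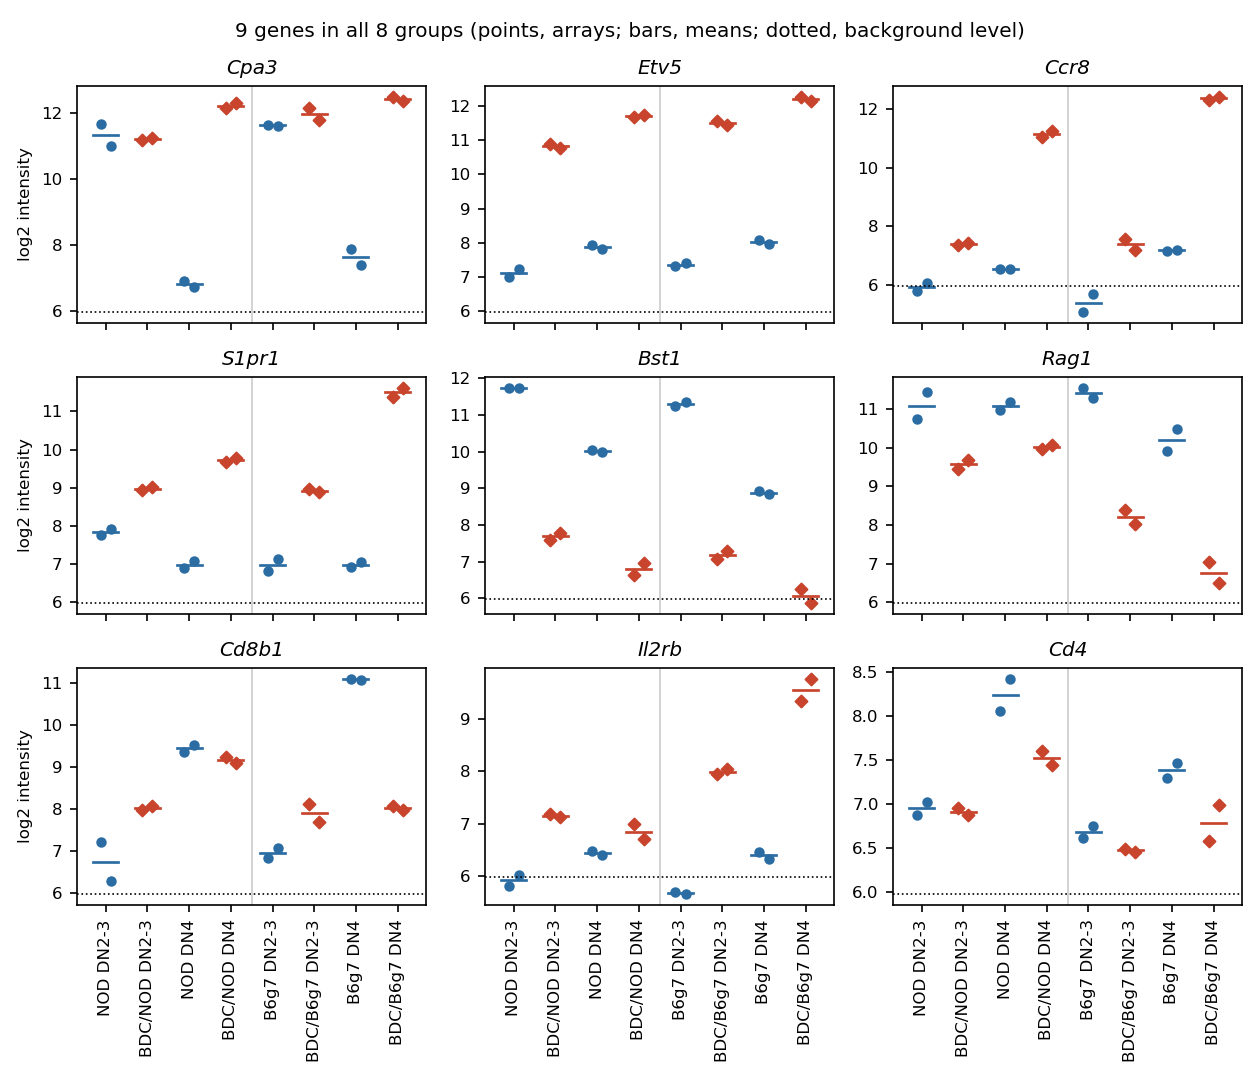
Log2 intensity on every array for 9 genes in the 8 groups, with NOD on the left and B6g7 on the right of each panel; blue circles are non-Tg arrays, red diamonds BDC arrays, bars group means, and the dotted line the background level of 5.98. Cpa3 is low in the non-Tg DN4 groups only, and Etv5 is high in every BDC group. Cd8b1 falls with the transgene in B6g7 DN4 and was not called in NOD DN4 in the main fit.

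Against the preceding stage, the response in NOD DN4 was largely another one. Genes called higher in DN4 had a median transgene difference of 0.02 in NOD DN2-3 and those called lower 0.07; 579 of 1132 and 636 of 1577 had the same sign there, and the correlation across 10689 genes was 0.135. The difference of the responses, DN4 minus DN2-3, was called higher for 1376 genes (12.9%) and lower for 2193 (20.5%), 38.6% of the calls being higher. Normalizing the arrays by quantiles again gave 1724 and 1831, or 48.5% higher. Because the NOD DN2-3 pair stood apart, the count was also taken without each of its arrays: 4073 genes, 49.1% of them higher, without replicate 1, and 5326, 31.1% of them higher, without replicate 2. Without the 4 male arrays it was 845.

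Genes differed in how early they responded. Cpa3 read 11.67 and 11.01 in NOD DN2-3 and 11.17 and 11.25 in BDC/NOD DN2-3 (-0.13 ± 0.20), levels near that of BDC/NOD DN4, and its low level was seen in non-Tg DN4 cells only (difference of responses 5.52 ± 0.28, adjusted p = 1.3e-07, and 5.19 without NOD DN2-3 replicate 1). In Atp8b4, Cd53 and Nkg7, too, NOD DN4 was the lowest of the 4 NOD groups. Their transgene differences in DN2-3 were -0.69 ± 0.10, -0.18 ± 0.09 and -0.40 ± 0.12, and the differences of responses 4.09 ± 0.14, 3.44 ± 0.12 and 3.25 ± 0.17. Etv5 had risen already in DN2-3, from 7 and 7.24 to 10.89 and 10.76, by 3.70 ± 0.10 against 3.83 in DN4 (difference 0.13 ± 0.15, adjusted p = 0.54). Igfbp4 (2.76 ± 0.11) and St6gal1 (2.72 ± 0.14) were likewise higher in DN2-3, and Slc15a1 read 8.53 and 8.42 there with the transgene and was not above background without it. Rag2 (-2.20 ± 0.22) and Bst1 (-4.06 ± 0.14) had fallen by DN2-3 too.

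Other genes had transgene differences of opposite sign at the stages. Replication genes, lower in DN4, had a median of 0.67 in DN2-3, and the difference of responses was called lower for 38 of 39, and likewise for 37 of 38 mitosis genes and 30 of 37 ribosome biogenesis genes. Ccne1 rose by 0.99 ± 0.09 in DN2-3 and fell in DN4 (difference -1.79 ± 0.12, adjusted p = 1e-06, and -1.73 without NOD DN2-3 replicate 1). Cd69 and Rgs1 did the reverse, with -1.33 ± 0.19 and -2.02 ± 0.30 in DN2-3 against 1.82 and 2.13 in DN4 (differences 3.14 ± 0.27 and 4.15 ± 0.43, and 3.16 and 3.62 without NOD DN2-3 replicate 1). Gria3, a glutamate receptor subunit gene, fell by 1.83 ± 0.09 in DN2-3 and rose by 1.59 ± 0.09 in DN4. Interferon response genes had a median of -0.66 in DN2-3 and 0.12 in DN4, with the difference called higher for 16 of 28.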

How the data were processed

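RNA from sorted thymocytes was measured on 16 Affymetrix Mouse Gene 1.0 ST arrays, 2 in each of 8 groups of strain, genotype and stage. The authors deposited one linear intensity per probe set and array, made with RMA in Affymetrix Power Tools, per the submitters' processing notes, with versions not given in the sources used here. Each deposited intensity was converted to log2. Of 25108 probe sets, 21157 had 1 gene symbol, 1341 several and 2610 none, and the brightest probe set of each gene was kept (19531 genes). Genes whose highest group mean reached 7.05, an intensity of 132.9, were tested (10689).

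All 16 arrays were fitted with limma 3.58.1 in R 4.3.3 as 8 group means with eBayes (8 residual and 5.06 prior degrees of freedom), two-sided, with Benjamini-Hochberg adjustment over all genes tested. The interactions came from the same fit. The computation was tested on simulated data.

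The members of the comparison, the gene lists and the rule for named genes were chosen with earlier results of these data known. Of 722 list genes 659 were matched and 540 tested. The text names the 15 largest called increases and decreases without overlap, up to 5 called members of each list with the largest difference, key genes, receptor locus genes and up to 8 genes in each direction of each interaction, leaving out predicted and sex-linked genes. Other genes, named to complete a count or for a marker, a promoter or a leave-out value, were chosen after their values were seen. Tradd, whose symbol resembles those of the receptor loci, was left out of that group. Alternatives changed the filter, the scaling, the probe sets, the spread estimate, the arrays in the fit, the minimum effect, the background and the terms for sex and replicate number, and left out each array in turn.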

Additional observations from a re-analysis of the deposited data

Results flagged for a closer look

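The results here were singled out because the transgene difference in NOD DN4 differed from that of another pair of groups in limma's interaction test, at an adjusted p under 0.05. Values are the NOD DN4 difference minus the other difference, in log2 units, and no cause was tested.

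Against B6g7 DN4, the value was positive for Cd8b1 (2.78), Rgs6 (2.51), Rag1 (2.38), Nrp1 (2.37), Ccdc18 (2.37), Cd8a (2.15), Myzap (1.97), Ccne2 (1.94), Myc (1.31), Rag2 (1.1) and Dntt (0.74). Myzap, a scaffold protein gene, was near the background level in both NOD DN4 groups. The value was negative for Samhd1 (-3.18), Rxfp1 (-2.79), Il2rb (-2.74), Snord37 (-2.62), Trim12a (-2.4), Niban1 (-2.28), Pcsk1 (-2.22), Sytl2 (-2.2), S1pr1 (-1.78), Itgae (-1.38), Ptpn22 (-0.97), Sox13 (-0.85), Id3 (-0.68), Blk (-0.66) and Cd5 (-0.53). For Rgs6, Samhd1, Rxfp1, Snord37, Trim12a, Pcsk1, Sytl2 and Rag2 at least 1 DN4 group was at background, so these values include readings below that level and are not exact. With signals raised to background they were 1.86, -3.22, -2.46, -2, -1.84, -2.42, -2.27 and -0.09. Trim12a, an antiviral gene of the TRIM family, was at background in every NOD group, so its difference in NOD has no measured value.

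Some of these calls rested on single arrays. Snord37 and Blk were not called without either B6g7 DN4 array, NOD DN4 replicate 2 or any transgenic DN4 array (as weak as -2.15, adjusted p = 0.13, and -0.54, adjusted p = 0.13). Rag2 was not called without B6g7 DN4 replicate 1 (0.7, adjusted p = 0.08), NOD DN4 replicate 2, either BDC/B6g7 DN4 array or BDC/NOD DN4 replicate 1. Cd5 was not called without B6g7 DN4 replicate 2 (-0.45, adjusted p = 0.066), NOD DN4 replicate 1, BDC/B6g7 DN4 replicate 1 or BDC/NOD DN4 replicate 2. Id3 was not called without B6g7 DN4 replicate 1, NOD DN4 replicate 2 (-0.64, adjusted p = 0.066), BDC/B6g7 DN4 replicate 2 or BDC/NOD DN4 replicate 2.

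Against NOD DN2-3, the value was positive for Cpa3 (5.52), Rgs1 (4.15), Atp8b4 (4.09), Ccr9 (3.49), Cd53 (3.44), Gria3 (3.42), Itgae (3.31), Nkg7 (3.25), Cd69 (3.14), Ccr8 (3.13), Blk (1.77), S1pr1 (1.61), Sox13 (1.44), Bcl2 (1.31), Notch3 (1.1), Egr2 (1.01), Cd27 (1), Ptpn22 (0.94), Egr1 (0.77) and Cd3e (0.49). It was negative for Ikzf3 (-1.95), Cd2 (-1.91), Ccnb1ip1 (-1.81), Prdx4 (-1.8), Ccne1 (-1.79), Birc5 (-1.73), Rrm2 (-1.71), Kif2c (-1.71), Cd8b1 (-1.55), Id3 (-1.2), Il2rb (-0.83), Cd8a (-0.81) and Cd4 (-0.68). Without NOD DN2-3 replicate 1 the values of Rrm2 and Kif2c were -1.32 and -1.41, that of Rgs1 was 3.62, and those of Notch3 and Cd8b1 were 1.55 and -2.01. Without NOD DN2-3 replicate 2 these 5 values were, in the same order, -2.11, -2, 4.69, 0.65 and -1.09. Cd8a and Egr1 had values of -1.09 and 1.06 without replicate 1 and of -0.52 and 0.47 without replicate 2. Notch3 was not called without BDC/NOD DN2-3 replicate 1 (1.01, adjusted p = 0.053), and Egr1 without BDC/NOD DN2-3 replicate 2, NOD DN4 replicate 1 (0.7, adjusted p = 0.065) or BDC/NOD DN4 replicate 1. Cd8a was not called without BDC/NOD DN2-3 replicate 2 (-0.67, adjusted p = 0.098), NOD DN4 replicate 2 or either BDC/NOD DN4 array. Cd4 was not called without BDC/NOD DN2-3 replicate 1, NOD DN4 replicate 2 (-0.5, adjusted p = 0.1) or BDC/NOD DN4 replicate 2. Cd3e was not called without BDC/NOD DN2-3 replicate 2, NOD DN4 replicate 2 (0.42, adjusted p = 0.065) or BDC/NOD DN4 replicate 1.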

How the results depend on the processing

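The count of genes changed in NOD DN4 was 2709; it was 613 without the 4 male arrays, 4491 with array weights, 4098 with only the arrays compared, 85 with a minimum of 2-fold, and 1353 to 3957 when each array was left out in turn. The strain count was 2152; it was 321 without the 4 male arrays, 3436 with array weights, 3305 with only the arrays compared or only the DN4 arrays, 18 with a minimum of 2-fold, and 1305 to 3734 with each array left out. The stage count was 3569; it was 845 without the 4 male arrays, 85 with a minimum of 2-fold, and 2459 to 5326 with each array left out. Of 148 called named genes, 126 to 134 stayed called without 1 of the 4 arrays compared, 102 without the male arrays and 46 with the 2-fold minimum. The minimum of 2-fold was a test that a difference exceeds 2-fold (limma's treat). It is stricter than an observed difference of at least 2-fold, which 216 genes called higher and 62 called lower had in NOD DN4. With signals raised to background, the difference of Trim12a became 0 and the strain difference of Rag2 -0.09, since readings below that level then carry no difference. The labels give same-numbered arrays no more than a number, and the main fit treats them as independent. The correlation of their deviations was 0.04 between NOD DN4 and BDC/NOD DN4 and ranged from -0.25 to 0.58 over all pairs of groups. Between DN2-3 and DN4 it was 0.58 in NOD, 0.46 in BDC/NOD, 0.48 in BDC/B6g7 and 0.1 in B6g7. In the BDC groups the number coincides with sex, and BDC groups of different strains had values of 0.31 to 0.41. Whether the arrays of the stages share a source was not tested, so the stage comparison may rest on paired arrays. With the replicate block the counts were 2725, 2172 and 3632.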
